A study of Homo sapiens with 16 samples.

Results

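The insulin-like growth factor (IGF) axis was followed through 10 genes in 4 human lines derived from clear cell renal cell carcinoma (ccRCC), the common form of kidney cancer. They were the ligand gene *IGF2*, the receptor genes *IGF1R* and *IGF2R*, and the genes of the IGF binding proteins *IGFBP1*, *IGFBP2*, *IGFBP3*, *IGFBP4*, *IGFBP5*, *IGFBP6* and *IGFBP7*, out of 57773 genes in the count table. The genes were chosen by name, with a result of these data already known: *IGFBP3* was higher with sgKDM5C than with sgCtrl in 786-O and 769-P. The values of the 10 genes in those comparisons are therefore given as a description, without a test. All 10 genes passed the filter of at least 60 counts summed over the 16 libraries. *IGFBP1*, *IGFBP2* and *IGF2* passed through the line of their highest level alone, with 55, 47 and 59 counts outside it, and 7 genes would have passed without their highest line.

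IGF ligands act through IGF1R, a receptor tyrosine kinase that signals through insulin receptor substrate adaptors and PI3K/AKT to growth and survival. IGF2R, the cation-independent mannose-6-phosphate receptor, carries IGF2 to lysosomes and has no kinase domain. IGFBP1 to IGFBP6 are secreted proteins that bind IGFs with high affinity and hold them away from the receptor until proteases cut them, whereas IGFBP7 binds IGFs weakly. In kidney cancers, *IGFBP3* is a well-known highly transcribed gene, and *IGFBP1* is a classical target of hypoxia-inducible factors.

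The study asked what mutation of *KDM5C* or *KDM5D*, an X-linked and a Y-linked gene for related histone H3 lysine-4 demethylases, does in ccRCC cells. Total RNA was sequenced from cells infected with lentiviruses carrying Cas9 and a guide, kept as populations and not as single clones. The lines were A498, 769-P, CAKI-2 and 786-O, and each had 1 control library (sgCtrl) and 2 libraries with guides against the same exon of *KDM5C* (sgKDM5C, guides 4 and 5). 786-O and CAKI-2 also had 2 libraries with guides against *KDM5D* (sgKDM5D, guides 2 and 4). The guides were the only replicates, so p-values measure the spread between these libraries.

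Depth ran from 23398449 to 41617439 counts per library. *KDM5C* was at 26.2% to 57.3% of the control in the 8 sgKDM5C libraries. *KDM5D* was at 76.2% and 79.1% of the control in the 786-O sgKDM5D libraries, between the 66.0% and 85.8% of the sgKDM5C libraries there, and at 102% and 103% in the CAKI-2 sgKDM5D libraries. The *KDM5D* level thus did not set the sgKDM5D libraries apart, and their labels have no check from it. The RNA level does not show the protein, which the paper probed by western blot in 786-O populations with these guides. The 786-O sgKDM5C guide 4 library stood furthest from the rest of its line, with 459 of 12075 well-measured genes more than 1 log2 unit away, against 106 to 263 in the other 786-O libraries, and 769-P sgKDM5C guide 4 had 326. Of 10 markers of ccRCC or renal epithelium, 8 or 9 reached a mean of 1 CPM, counts scaled to the library total, in each line. Those that did not were *CA9* in 786-O, CAKI-2 and 769-P (at most 0.0698 CPM), *LRP2* in 786-O and A498 (at most 0.0851 CPM) and *EPCAM* in A498 (at most 0.826 CPM). The immune list (*PTPRC*, *CD3E*, *CD14*) summed to at most 0.657 CPM and the endothelial markers in the table to at most 1.87 CPM, while the fibroblast list (*DCN*, *LUM*, *PDGFRB*) summed to at most 9.95 CPM, in 769-P. In bulk RNA, fewer cells with a transcript and less transcript per cell cannot be told apart.

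Each line had its own profile of the 10 genes. The level of a line was taken as its mean over the sgCtrl library and both sgKDM5C libraries (n = 3), in CPM of the TMM-scaled library total. *IGFBP1*, *IGFBP2* and *IGF2* had to differ between the lines to be tested at all, so their differences are described and left out of the counts here. The 7 others all differed between the lines by edgeR's quasi-likelihood test, against a background of 91.5% of the 20175 genes tested and 92.9% of the 17085 that passed the filter without their highest line, so such a difference is the common case in this table. *IGFBP3* is among the 7, and its 786-O and 769-P levels hold the sgKDM5C values that led to the choice of genes. It was called in every comparison counted here. Its part in the counts that use 786-O or 769-P is therefore a description and not a test. The order of the lines was not shared by the 7 genes. CAKI-2 had the highest level of *IGFBP4*, *IGFBP7* and *IGF1R*, A498 of *IGFBP3*, *IGFBP5* and *IGFBP6*, and 786-O of *IGF2R*. Between pairs of lines, 6 of the 7 genes were called for A498 against 786-O (70% of all genes), 7 for CAKI-2 against 786-O (65%) and 6 for 769-P against 786-O (52.4%). Against A498, 6 were called for CAKI-2 (67.3%) and 6 for 769-P (71.1%), and 7 were called for 769-P against CAKI-2 (65.8%). Among the genes that passed the filter without their highest line, these shares were 72.9%, 66.4%, 57.2%, 68.3%, 74.1% and 67.6%, in the same order.

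**Figure D1:**
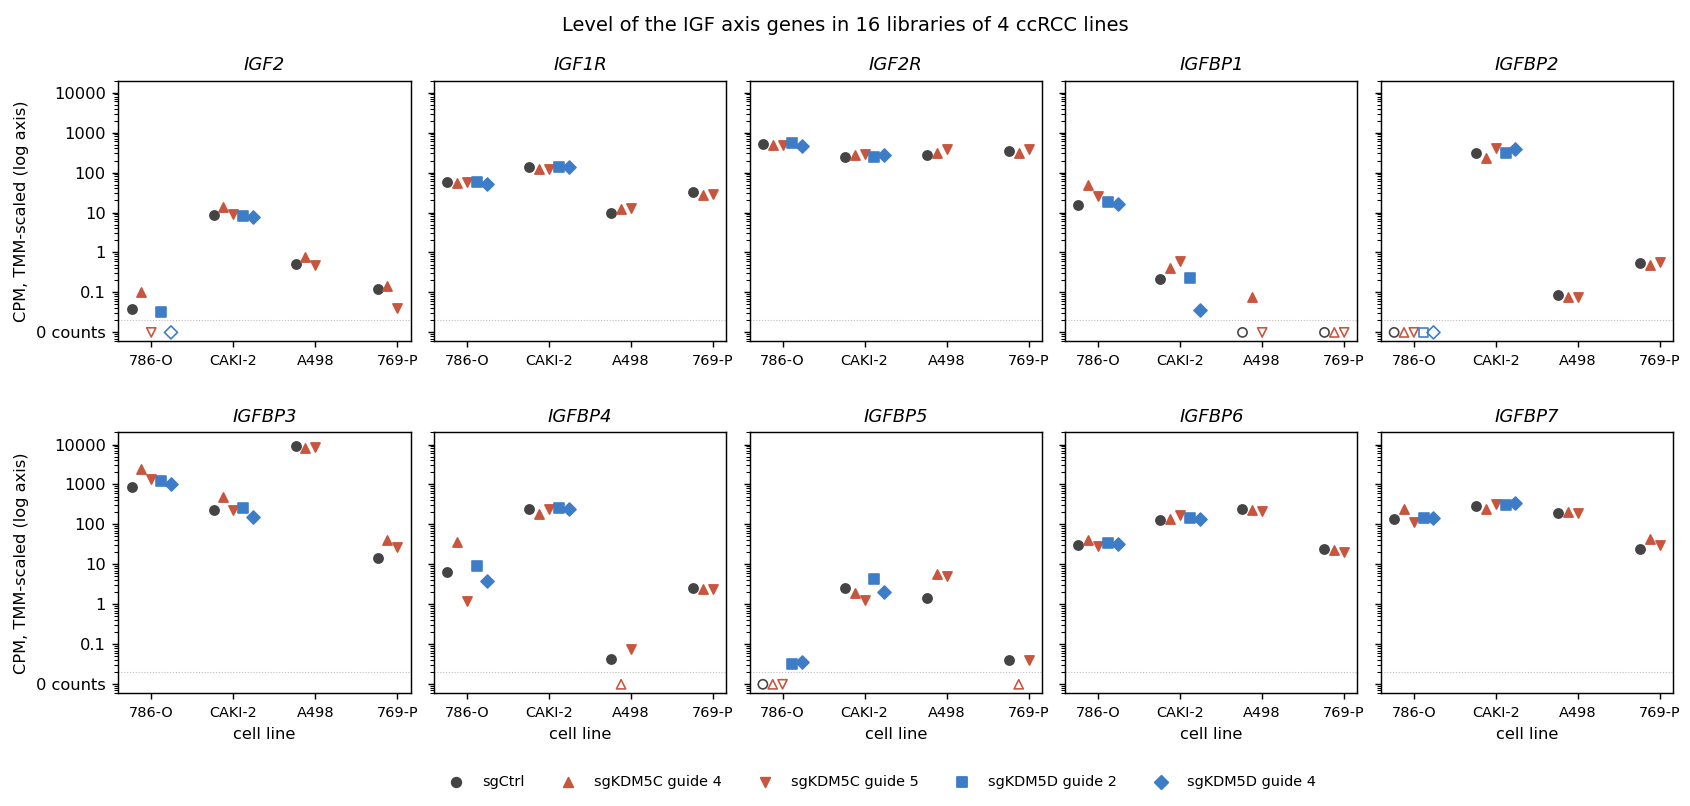
Level of each IGF axis gene in the 16 libraries, in CPM of the TMM-scaled library total on a log axis, with a point per library by cell line; open symbols at the bottom mark libraries with 0 counts. *IGFBP2* and *IGF2* exceeded 1 CPM in CAKI-2 alone and *IGFBP1* in 786-O alone, whereas *IGF2R* stayed between 241.7 and 548 CPM in every library.

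*IGF2* encodes the growth factor of the axis and exceeded 1 CPM in CAKI-2 alone. Its level there was 8.91 CPM in sgCtrl, 14.1 and 8.98 CPM with sgKDM5C guides 4 and 5, and 8.03 and 7.92 CPM with sgKDM5D guides 2 and 4. A498 had 0.598 ± 0.165 CPM (SD, n = 3), the next level down. In 769-P and 786-O the gene had 8 and 4 counts summed over 3 libraries, a difference that is described without a test. *IGF1*, the other ligand, did not reach the count filter, and its highest line mean was 0.164 CPM, in 786-O. *IGF2* lies at GRCh37 chr11:2150342-2179621 on the minus strand and shares its interval with the read-through gene *INS-IGF2*, which had 0 counts.

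*IGF1R*, the signalling receptor, was ordered CAKI-2, 786-O, 769-P and A498, and every neighbour in that order differed. The means were 126 ± 9.51 CPM in CAKI-2, 56.4 ± 0.196 CPM in 786-O, 29.5 ± 3.35 CPM in 769-P and 11.45 ± 1.58 CPM in A498 (SD, n = 3 each), a range of 11.04-fold. The smallest step, from 786-O to 769-P, had a log2 fold change of 0.94 ± 0.10 (SE, adjusted p = 2.93e-06). All libraries of a line lay together, and no library of a line overlapped those of another.

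*IGF2R* varied least of the 10 genes, by 1.85-fold between the highest and the lowest line. 786-O had 499 ± 28.04 CPM, above 769-P with 342 ± 41.8 CPM (log2 fold change 0.55 ± 0.13, adjusted p = 0.00285). 769-P and A498 (326 ± 62.7 CPM) did not differ beyond their spread (adjusted p = 0.617), nor did A498 and CAKI-2 (269.8 ± 24.7 CPM, adjusted p = 0.0842). The A498 to CAKI-2 step was called without the A498 sgCtrl library (adjusted p = 0.0357). The 769-P to CAKI-2 difference, called at an adjusted p of 0.0313, was not called with DESeq2 (adjusted p = 0.0684), with RLE size factors (0.0759) or with the filterByExpr filter (0.0563). It was also not called without CAKI-2 sgCtrl (0.206), sgKDM5C guide 4 (0.0904) or guide 5 (0.067), or without 769-P sgKDM5C guide 5 (0.118).

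The balance between the receptors, set per kilobase of exon, moved with *IGF1R*. The ratio of *IGF1R* to *IGF2R* was 0.799 ± 0.110 over 5 CAKI-2 libraries and 0.180 ± 0.00870 over 5 786-O libraries. It was 0.141 ± 0.0208 in 769-P and 0.0575 ± 0.00655 in A498 (SD, n = 3 each). By the length of all annotated exons, the receptor for degradation was therefore the more abundant mRNA in every library, with a ratio of at most 0.921. The ratio depends on that length.

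*IGFBP3*, the gene of the main IGF carrier protein in serum, had the widest range among the genes that were well measured in all lines. A498 had 8688 ± 656 CPM, 786-O 1577 ± 833 CPM, CAKI-2 316 ± 153 CPM and 769-P 27.3 ± 12.9 CPM (SD, n = 3 each), a range of 318-fold. Each step in that order was called, with log2 fold changes of 2.56 ± 0.28 (adjusted p = 1.66e-06), 2.25 ± 0.28 (6.86e-06) and 3.61 ± 0.30 (1.14e-07). The 786-O and 769-P levels hold the sgKDM5C values that led to the choice of genes. The range, the SD and these tests therefore rest partly on those values. In the sgCtrl libraries alone, A498, 786-O, CAKI-2 and 769-P had 9271, 848, 224 and 14.2 CPM, in the same order but with 1 library each. In A498 the gene ranked 6 of 57773 by counts and 21 of 55538 by CPM per kilobase, whereas in 769-P it ranked 5770 by CPM per kilobase. It took up to 0.931% of all counts in an A498 library.

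The gene lies at GRCh37 chr7:45951844-45961473 on the minus strand. *IGFBP1*, at chr7:45927959-45933259 on the plus strand, ends 18584 bp from the end of *IGFBP3*, with no other annotated gene between them. *IGFBP1* had its highest level in 786-O, a line in which *IGFBP3* was second. Its 786-O level was 15.05 CPM in sgCtrl, 49.8 and 26.4 CPM with sgKDM5C guides 4 and 5, and 18.2 and 16.8 CPM with sgKDM5D guides 2 and 4. CAKI-2 was lower, at 0.412 ± 0.190 CPM. A498 had 2 counts in all and 769-P 0 counts, which puts 786-O at least 819-fold above 769-P, against a floor of 3 counts over the 3 libraries.

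*IGFBP2* and *IGFBP4* were highest in CAKI-2. *IGFBP2* had 307 CPM in CAKI-2 sgCtrl, 229 and 406 CPM with sgKDM5C guides 4 and 5, and 303 and 383 CPM with sgKDM5D guides 2 and 4. It had 0 counts in all 5 786-O libraries, which puts CAKI-2 at least 9031-fold above 786-O against 3 counts over 3 libraries. In 769-P and A498 it stood at 0.536 ± 0.0389 and 0.0788 ± 0.00553 CPM, the latter from 6 counts. The step from A498 to 786-O thus rests on 6 counts against 0 and is described without a test.

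*IGFBP4*, whose protein is cleaved by the protease PAPP-A, was at 226 ± 33.8 CPM in CAKI-2 (SD, n = 3) and at 2.49 ± 0.0637 CPM in 769-P, and A498 had 3 counts in all. The 786-O libraries did not lie together. sgCtrl had 6.39 CPM, sgKDM5C guide 4 had 35.4 CPM, guide 5 had 1.19 CPM, and sgKDM5D guides 2 and 4 had 9.34 and 3.79 CPM. CAKI-2 was above 786-O by a log2 fold change of 4.13 ± 0.69 (adjusted p = 0.000114), and by 6.36 (adjusted p = 1.01e-10) without 786-O sgKDM5C guide 4. The 786-O level was above that of 769-P (log2 fold change 2.37 ± 0.75, adjusted p = 0.0154), but without that library the difference of 769-P against 786-O was -0.18 (adjusted p = 0.724). It was also not called without 769-P sgKDM5C guide 4 (0.0525) or guide 5 (0.0506).

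*IGFBP5* lies 7668 bp from *IGFBP2* on chromosome 2, again end to end with no gene between them, and was measured in both CAKI-2 and A498 at low levels. A498 had 1.40 CPM in sgCtrl and 5.63 and 5.21 CPM with sgKDM5C guides 4 and 5. CAKI-2 had 2.60 CPM in sgCtrl, 1.95 and 1.27 CPM with sgKDM5C guides 4 and 5, and 4.33 and 2.01 CPM with sgKDM5D guides 2 and 4. The mean was higher in A498 than in CAKI-2 (log2 fold change of CAKI-2 against A498 -0.88 ± 0.32, adjusted p = 0.0251), although the control libraries had the opposite order. The call was lost with DESeq2 (adjusted p = 0.127) and without sgKDM5C guide 4 or 5 of either line (0.0515 to 0.256), and the difference was -1.53 (adjusted p = 0.00132) without A498 sgCtrl. 769-P had 2 counts and 786-O had 0 counts in sgCtrl and sgKDM5C, with 1 count in each sgKDM5D library.

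*IGFBP6*, whose protein prefers IGF2, and *IGFBP7* were measured in every library. *IGFBP6* was ordered A498 (226 ± 12.3 CPM), CAKI-2 (145 ± 22.9 CPM), 786-O (33.6 ± 6.47 CPM) and 769-P (22.7 ± 1.61 CPM), with every step called and a range of 9.99-fold. The smallest step, from 786-O to 769-P, was 0.56 ± 0.14 on the log2 scale (adjusted p = 0.00367). *IGFBP7* was highest in CAKI-2 (283 ± 41.1 CPM), next in A498 (197 ± 11.6 CPM) and 786-O (164 ± 65.4 CPM), and lowest in 769-P (32.7 ± 10.1 CPM), a range of 8.67-fold (SD, n = 3 each). A498 and 786-O did not differ beyond their spread (adjusted p = 0.262), but they did without 786-O sgKDM5C guide 4 (log2 fold change 0.59, adjusted p = 0.00262). The step from CAKI-2 to A498 was 0.52 ± 0.21 (adjusted p = 0.042) and was lost without CAKI-2 sgKDM5C guide 5 or any of the A498 libraries (0.068 to 0.109). *IGFBP7* overlaps *POLR2B*, which lies on the opposite strand and had 54653 counts over the 16 libraries. The use of strand in counting is not given in the sources used here, so reads of the shared stretch cannot be assigned.

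Set per kilobase of exon, the binding protein mRNAs added up to 2023 to 2307 CPM per kb in A498, 466 to 546 in CAKI-2, 291 to 744 in 786-O and 34.3 to 50.0 in 769-P. *IGFBP3* made up 86.3% to 88.2% of that sum in A498 and 63.7% to 75.7% in 786-O. In CAKI-2 the sum was spread over several genes, with 26.9% to 34.9% from *IGFBP7*, 19.95% to 23.4% from *IGFBP6*, 18.2% to 23.5% from *IGFBP4*, 10.3% to 16.03% from *IGFBP2* and 6.83% to 23.1% from *IGFBP3*. In 769-P *IGFBP6* and *IGFBP7* led, with 34.9% to 51.4% and 35.9% to 45.2%, and *IGFBP3* gave 9.05% in sgCtrl, 17.4% with sgKDM5C guide 4 and 15.8% with guide 5. The leading gene was *IGFBP3* in every library of A498 and 786-O. The upper end of its CAKI-2 share came from sgKDM5C guide 4. The length used is the union of all annotated exons of a gene, and the transcripts in the cells can be shorter. It was 4742 bases for *IGFBP2*, 4569 for *IGFBP3*, 1930 for *IGFBP7* and 1346 for *IGFBP6*. The shares and their order depend on it. In CPM, without a length, the CAKI-2 mean over 5 libraries was 325.5 for *IGFBP2* and 298.9 for *IGFBP7*.

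**Figure D2:**
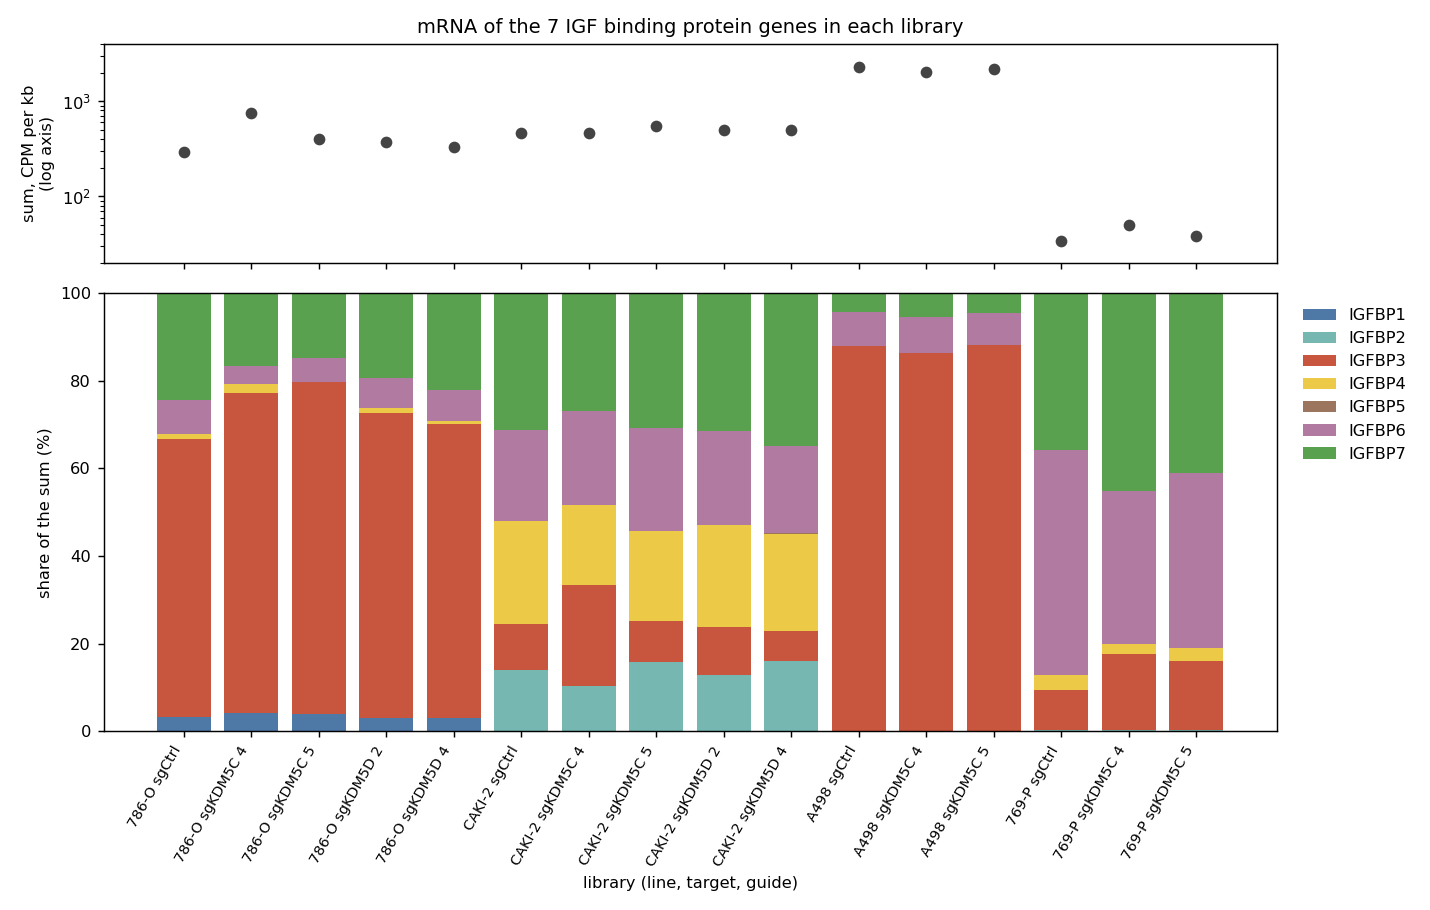
Upper panel: sum of the 7 binding protein mRNAs in each library, in CPM per kilobase of exon on a log axis. Lower panel: share of each gene in that sum, in percent, by library. *IGFBP3* fills 86.3% to 88.2% of each A498 bar, and *IGFBP2* is visible only in CAKI-2.

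Promoter sequence was looked at for *IGFBP3* and *IGFBP4*, because, among the genes with a window, they had the largest ratios to the control in the 786-O sgKDM5C guide 4 library, at 2.93 and 5.54. RefSeq windows on GRCh38.p14 were on hand for 7 of the 10 genes, and *IGFBP1*, *IGFBP7* and *IGF2* had none in the table. The 250 bases before the start are printed 5′ to 3′ on the gene's own strand. Capitals mark matches, on either strand, to a GC box (GGGCGG) or a TATA box (TATAAA).
*IGFBP3*, GRCh38.p14 chr7:45921273-45921522, minus strand: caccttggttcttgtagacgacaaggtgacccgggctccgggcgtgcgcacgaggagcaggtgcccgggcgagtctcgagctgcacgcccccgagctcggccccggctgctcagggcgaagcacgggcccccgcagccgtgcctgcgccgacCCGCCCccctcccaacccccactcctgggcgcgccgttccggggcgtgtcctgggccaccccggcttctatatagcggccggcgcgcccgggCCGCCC
*IGFBP4*, GRCh38.p14 chr17:40443200-40443449, plus strand: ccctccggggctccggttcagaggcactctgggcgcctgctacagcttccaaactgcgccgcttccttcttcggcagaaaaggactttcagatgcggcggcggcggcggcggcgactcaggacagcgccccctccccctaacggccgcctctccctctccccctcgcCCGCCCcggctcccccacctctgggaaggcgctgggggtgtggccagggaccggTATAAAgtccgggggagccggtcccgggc

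Both printed windows were rich in G and C, with 76% and 71.6% against a median of 58% over 35116 windows, and in CpG, with 32 and 24 against a median of 11. The *IGFBP3* window held 2 GC boxes and the *IGFBP4* window 1, a motif present in 42.6% of all windows. *IGFBP6*, also highest in that library at 1.35 times the control, had a window with 61.2% G and C, 9 CpG and 1 GC box. The exact string TATAAA was found in the *IGFBP4* window and in 10.7% of all windows. Variants of it were not searched, such as the TATATA in the *IGFBP3* window. The core hypoxia response motif ACGTG, found in 18.5% of all windows on either strand, was in neither window. Among the other genes with a window it occurred in *IGF1R* and *IGF2R*. These matches describe letters in the windows and no binding was measured here.

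The wider pathway was read from a list of 42 genes of ligands, receptors, binding protein proteases, IGF2 mRNA binding proteins and signalling proteins. Of these, 37 were tested and 35 differed between the lines, against the background of 91.5%. The ratio of the highest to the lowest line mean, on the log2 scale with 0.1 CPM added to each mean, placed 5 genes first. They were *STC1* and *STC2*, stanniocalcins that inhibit PAPP-A, the insulin receptor *INSR*, the endocytic receptor *LRP1* and the mRNA binding protein *IGF2BP1*. *STC1* was at 63.6 ± 18.7 CPM in A498 and 0.118 ± 0.0422 CPM in 769-P, *STC2* at 265 ± 36.8 CPM in CAKI-2 and 10.25 ± 2.04 CPM in 769-P, and *LRP1* at 746 ± 123 CPM in A498 and 22.9 ± 2.11 CPM in 769-P (SD, n = 3 each). *INSR* had 13.8 ± 0.488 CPM in 769-P and 0 counts in 786-O sgCtrl and sgKDM5C, with 1 count in 1 of the 786-O sgKDM5D libraries. *IGF2BP1* was at 2.78 CPM in A498 and had 1 count in 769-P. The sixth was the secreted protein gene *IGFBPL1* (4.30, with 1.87 CPM in CAKI-2 and 0 counts in 786-O and A498), and the places of genes at or near 0 counts in a line depend on the amount added. The lowest mean was that of 769-P for *STC1*, *STC2* and *LRP1*, as it was for *IGFBP3*, *IGFBP6* and *IGFBP7*.

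*IGFBP3*, whose level with sgKDM5C led to the choice of these genes, was above the control with both guides in 786-O and 769-P. In 786-O it had 848 CPM in sgCtrl, 2484 CPM with sgKDM5C guide 4 and 1399.7 CPM with guide 5, which are 2.93 and 1.65 times the control. In 769-P it had 14.2, 39.9 and 27.9 CPM, 2.82 and 1.97 times the control. The fitted log2 fold changes were 1.20 and 1.26, given without a test. Since its rise led to the choice, *IGFBP3* is not set against the share of all genes. Among the other genes of the axis, both guides were at least 1.5-fold above the control for *IGFBP1* in 786-O and for none in 769-P. The shares of all genes were 3.43% and 5.2%. By an adjusted p under 0.05, 0.00991% and 0.00496% of all genes were called in these comparisons. *IGFBP3* was higher with guide 4 than with guide 5 in both lines.

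**Figure D3:**
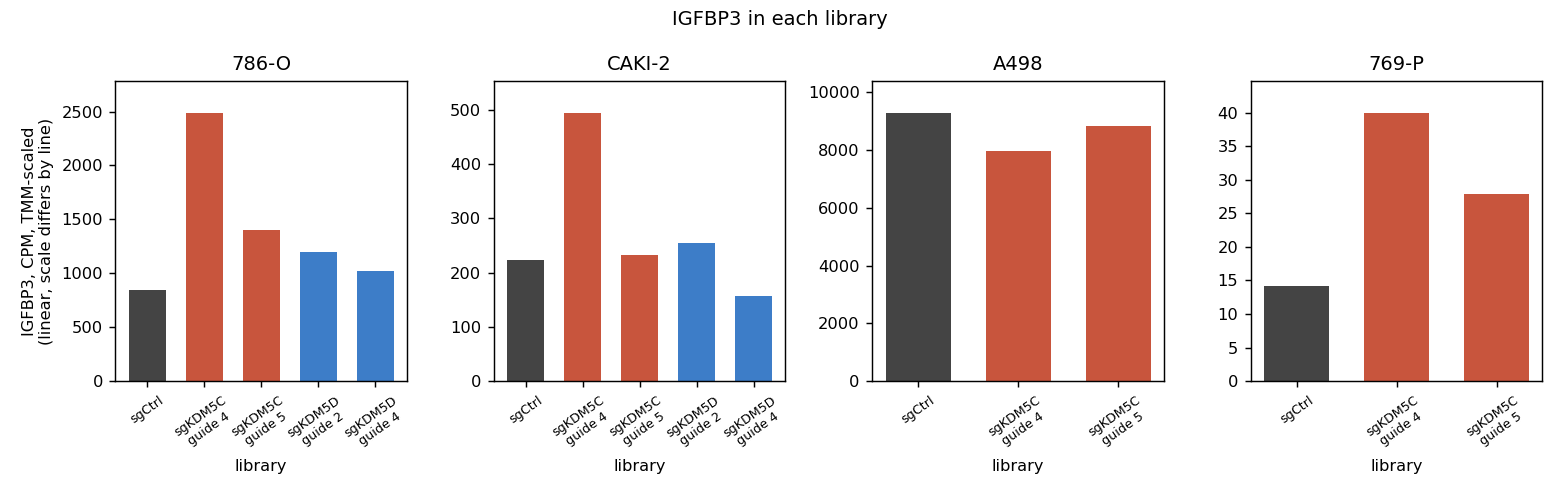
*IGFBP3* in each library of the 4 lines, in CPM of the TMM-scaled library total on linear axes from 0 whose scale differs by line; a bar is 1 library. The sgKDM5C bars stand above sgCtrl in 786-O and 769-P, in CAKI-2 the guide 5 bar is level with sgCtrl, and in A498 both sgKDM5C bars are below it.

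The choice did not use CAKI-2 and A498. In CAKI-2, *IGFBP3* was at 224 CPM in sgCtrl, 493 CPM with guide 4 and 232 CPM with guide 5. The log2 fold change was 0.70 ± 0.42 (SE), which did not pass the test (adjusted p = 1), and it was 0.08 without the guide 4 library. In A498 the gene was at 9271, 7977 and 8815 CPM, a log2 fold change of -0.14 ± 0.40 (adjusted p = 0.986). The difference between the A498 and CAKI-2 effects was -0.84 ± 0.57 (adjusted p = 1).

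Several other binding protein genes were also highest in the 786-O sgKDM5C guide 4 library, and their values are descriptions for the same reason. *IGFBP4* was 5.54 times the control with guide 4 and 0.185 times the control with guide 5, a ratio of 29.9 between libraries of the same target. *IGFBP7* was at 137 CPM in sgCtrl, 238 CPM with guide 4 and 115 CPM with guide 5, and *IGFBP6* at 30.4, 41.0 and 29.3 CPM. *IGFBP1* alone followed *IGFBP3* with both guides, at 3.31 and 1.75 times the control. *IGFBP3* is left out of the tally here, since its rise in this line led to the choice of genes. Of the others with at least 20 counts in 786-O, *IGFBP1*, *IGFBP4*, *IGFBP6* and *IGFBP7* had their highest value in the guide 4 library. For 30.9% of all genes that library was also the highest. *IGF1R* and *IGF2R* were highest in the sgKDM5D guide 2 library. *IGF1R* was at 56.5, 56.2 and 56.5 CPM in sgCtrl and with sgKDM5C guides 4 and 5, and *IGF2R* at 532, 481 and 486 CPM. The sgKDM5C guide 4 library of 786-O also had the lowest *KDM5C* level of the 8, at 26.2% of the control. Whether the distance of the library from its line has a part in these values was not tested.

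**Figure D4:**
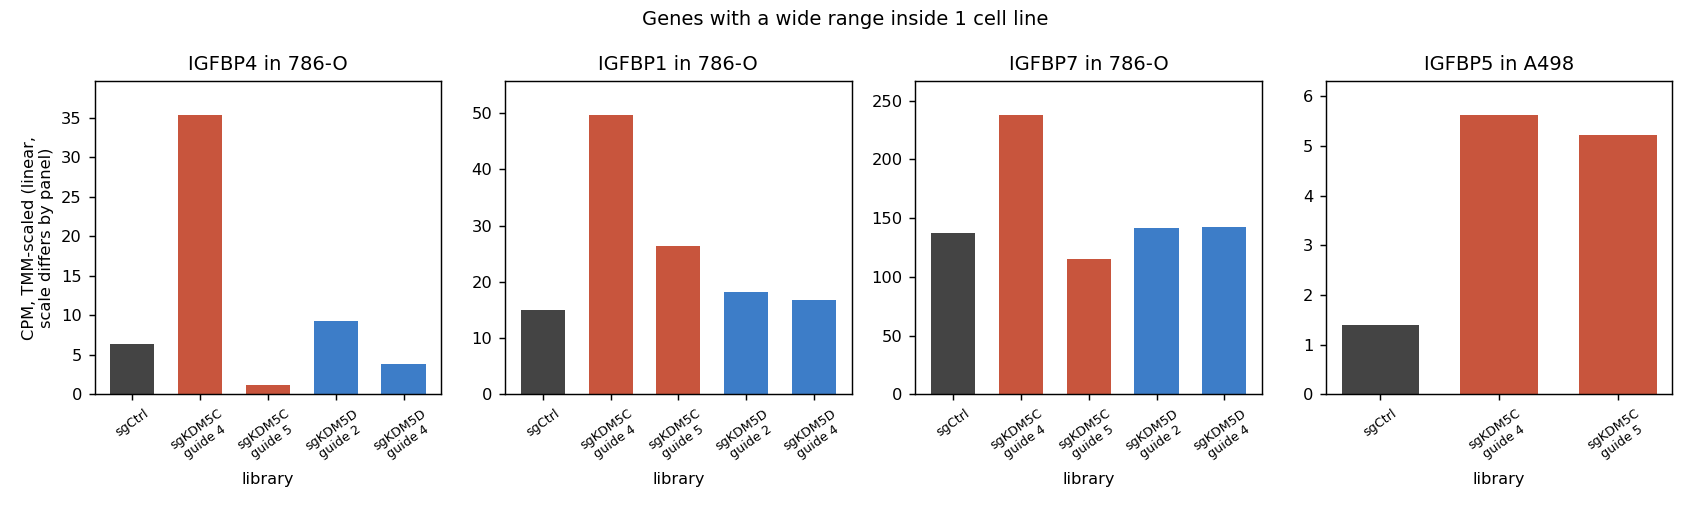
Libraries of 786-O for *IGFBP4*, *IGFBP1* and *IGFBP7*, and of A498 for *IGFBP5*, in CPM of the TMM-scaled library total on linear axes from 0; a bar is 1 library. In 786-O the guide 4 bar of sgKDM5C is the highest for all 3 genes, with the guide 5 bar of *IGFBP4* at 1.19 CPM, and in A498 both sgKDM5C bars of *IGFBP5* stand above sgCtrl.

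In 769-P the other genes lay closer to their control. *IGFBP7* was at 23.7 CPM in sgCtrl, 43.6 CPM with guide 4 and 30.7 CPM with guide 5. *IGF1R* was lower with both guides, at 33.3, 26.9 and 28.3 CPM. *IGFBP4* and *IGFBP6* stayed between 0.879 and 0.993 times the control. *IGFBP1* had 0 counts in all 3 libraries, so no fold can be given. The median log2 fold change of the 10 genes was 0.29 in 786-O and -0.03 in 769-P, against 0 and 0.02 over all genes tested, with the genes near 0 counts included at their fitted values here and in the medians that follow.

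In A498, none of the 10 genes passed edgeR's test of sgKDM5C against sgCtrl, in which 0.00496% of all genes were called. Only *IGFBP5* was at least 1.5-fold above the control with both guides, as were 4.68% of all genes. Of the 7 genes with at least 20 counts in A498, *IGFBP5* lay furthest from its control, at 4.01 times the control with guide 4 and 3.71 times with guide 5 (log2 fold change 1.95 ± 0.52 SE). Its unadjusted p was 0.00243 and its adjusted p 0.749, and of the 10 genes it alone had an unadjusted p under 0.05, as did 5.55% of all genes. DESeq2 called none of the 7 genes it gave an adjusted p, and gave none to *IGFBP1*, *IGFBP5* and *IGF2*. Without the low count filter *IGFBP5* was called (adjusted p = 0.0375). *IGF1R* was at 9.66, 12.01 and 12.7 CPM in sgCtrl and with guides 4 and 5 (log2 fold change 0.35 ± 0.17, adjusted p = 0.882), and *IGF2R* at 279, 301 and 397 CPM (0.32 ± 0.20, adjusted p = 0.9). *IGFBP6* and *IGFBP7* were between 0.897 and 1.09 times the control. The median log2 fold change of the 10 genes was 0.19, against 0.02 over all genes tested.

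In CAKI-2, none of the 10 genes passed the test of sgKDM5C against sgCtrl with edgeR or DESeq2, none had an unadjusted p under 0.05 against 1.94% of all genes, and 0% of all genes were called by edgeR. *IGFBP1* had 8, 12 and 26 counts in sgCtrl and with guides 4 and 5 (log2 fold change 1.24 ± 0.75). It was the only 1 of the 10 genes at least 1.5-fold above the control with both guides, as were 3.09% of all genes. *IGFBP5* was below the control, with 0.753 and 0.488 times the control (log2 fold change -0.70 ± 0.46, adjusted p = 1). The difference between the *IGFBP5* effects of A498 and CAKI-2 was 2.65 ± 0.69 with an unadjusted p of 0.00198, and that of *IGF1R* was 0.53 ± 0.22 (0.0323). Both had an adjusted p of 1, in a comparison in which 0% of all genes were called and 3.01% had an unadjusted p under 0.05. DESeq2 called none either. *IGFBP2* and *IGFBP7* were below the control with guide 4 (229 and 243 CPM) and above it with guide 5 (406 and 325 CPM). The median log2 fold change of the 10 genes was 0.14, against 0 over all genes tested.

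**Figure D5:**
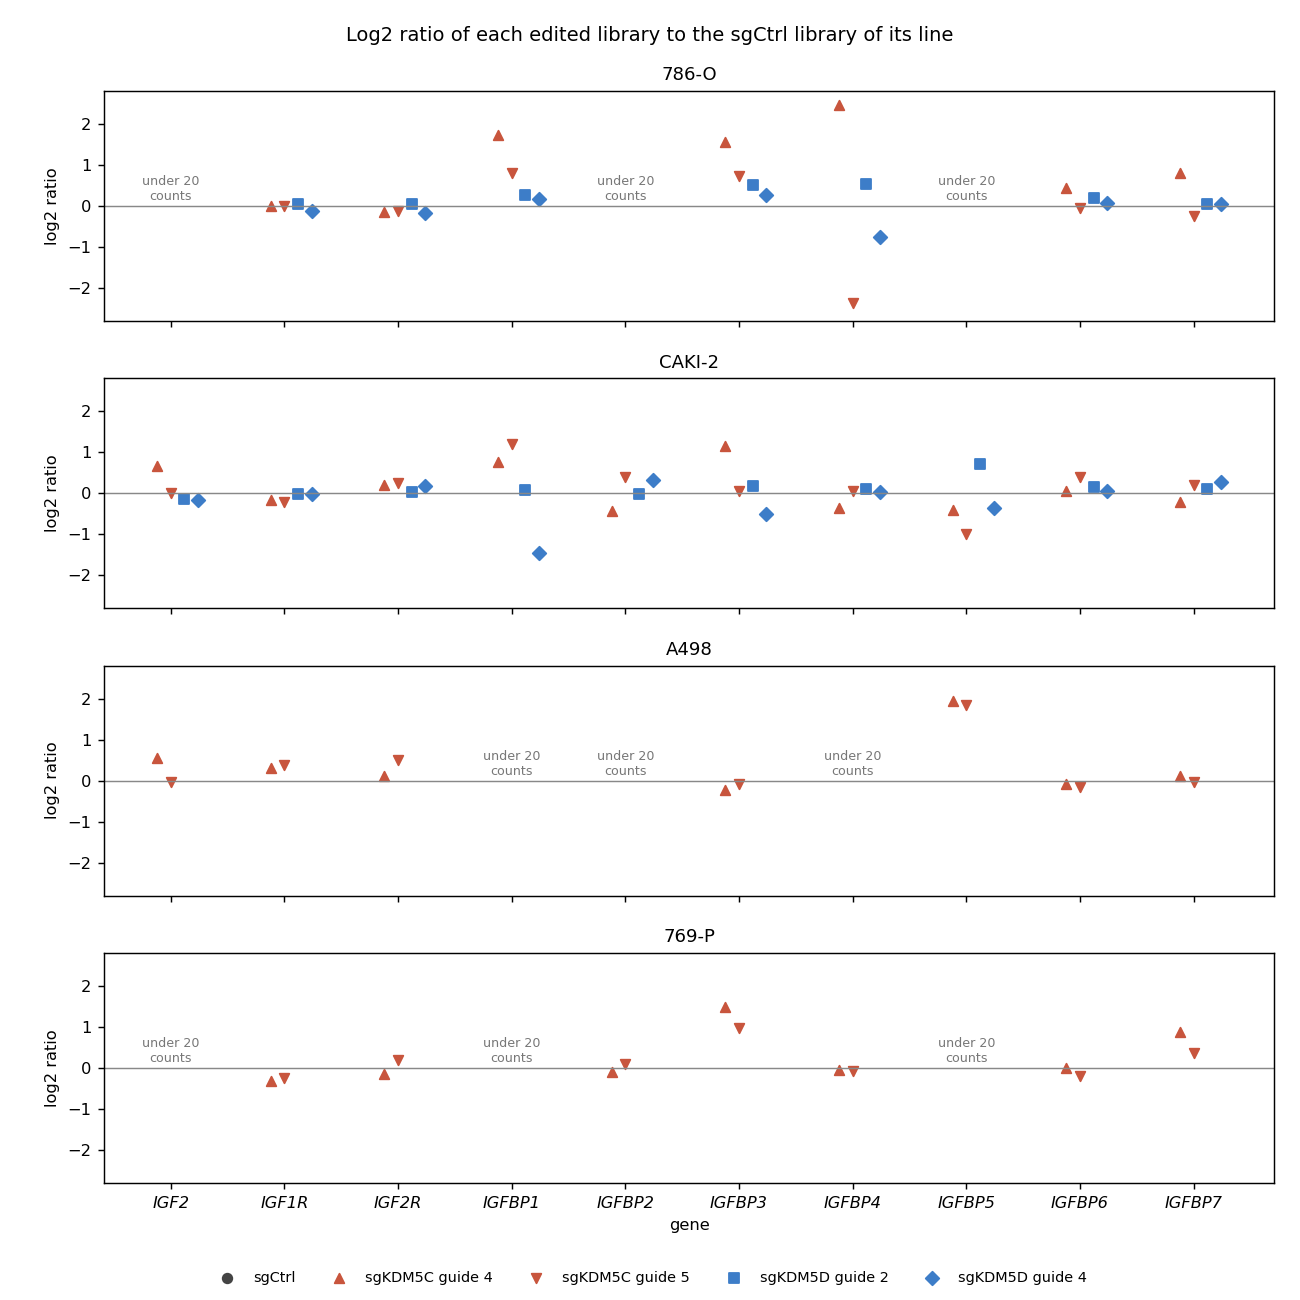
Log2 ratio of each edited library to the sgCtrl library of its line (prior count 2) for the 10 genes, with a panel per line and a point per library; genes with under 20 counts summed over a line are marked as such. The widest gap between guides of 1 target is that of *IGFBP4* in 786-O, from 2.46 with guide 4 to -2.36 with guide 5.

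With sgKDM5D, the test against sgCtrl called none of the 10 genes in either line with edgeR or DESeq2, and none had an unadjusted p under 0.05 (1.82% of all genes in 786-O, 0.773% in CAKI-2). The share of all genes called by edgeR was 0.0149% for 786-O and 0% for CAKI-2. *IGFBP3* was at 1202 and 1023 CPM in 786-O, 1.42 and 1.21 times the same control library that served for sgKDM5C (log2 fold change 0.39). That library is part of the comparison that led to the choice of genes, so the value is described without a test. In CAKI-2 it was at 255 and 157 CPM, on either side of the control at 224 CPM. *IGF1R* and *IGF2R* lay between 0.892 and 1.14 times the control in these 4 libraries. The difference between the sgKDM5D effects of both lines was not called for any of the 10 genes by edgeR, with none at an unadjusted p under 0.05 (1.47% of all genes) and 0.00496% of all genes called, nor by DESeq2.

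The comparison of sgKDM5C with sgKDM5D leaves out the control libraries. In 786-O edgeR called 0.0644% of all genes and none of the 9 genes other than *IGFBP3*, which is described only (log2 fold change 0.80). *IGFBP1* had an unadjusted p of 0.00453 and a log2 fold change of 1.119 ± 0.33 (adjusted p = 0.54), with both sgKDM5C libraries above both sgKDM5D libraries, and 4.78% of all genes had an unadjusted p under 0.05. DESeq2 called none of the 9. Without sgKDM5C guide 5, *IGFBP1* (log2 fold change 1.505, adjusted p = 0.0197) and *IGFBP4* (2.42, adjusted p = 0.0011) were called. They were called as well without the low count filter (adjusted p = 0.00239 and 5.62e-12), although the *IGFBP4* sgKDM5C libraries lay above and below both sgKDM5D libraries. Its log2 fold change of 1.47 ± 0.81 became -2.46 (adjusted p = 0.0746) without sgKDM5C guide 4.

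In CAKI-2 none of the 10 genes were called by edgeR or DESeq2 between sgKDM5C and sgKDM5D, and edgeR called 0% of all genes. Unadjusted p-values under 0.05 were found for 3 of the 10 genes, against 3.38% of all genes. They were *IGFBP1* (1.96 ± 0.72 on the log2 scale), *IGFBP3* (0.82 ± 0.33) and *IGFBP5* (-0.99 ± 0.39), with an adjusted p of 1 each by edgeR. The sgKDM5C libraries of *IGFBP3* were at 493 and 232 CPM and the sgKDM5D libraries at 255 and 157 CPM, so that the groups overlapped. *IGFBP3* was called without the low count filter (adjusted p = 1.11e-06).

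The guides of sgKDM5C were also set against each other, with 1 term for guide 5 over guide 4 shared by the 4 lines in the fit. Such a term is not a mean of the lines, and a line with few counts has little part in it. *IGFBP3* is described only, since the guide libraries of 786-O and 769-P that led to its choice are among those compared. Its log2 difference was -0.57, and the differences within lines were -0.83 in 786-O, -1.09 in CAKI-2 and -0.52 in 769-P but 0.14 in A498. edgeR and DESeq2 called none of the other 9 genes and edgeR 0% of all genes, while 2 of the 9 and 4.65% of all genes had an unadjusted p under 0.05. These were *IGFBP2* (0.70 ± 0.20 SE) and *IGF2* (-0.79 ± 0.33), with an adjusted p of 0.903 for both by edgeR. Both rest mainly on the CAKI-2 libraries. There *IGFBP2* had 6559 and 17617 counts with guides 4 and 5, against at most 14 in a sgKDM5C library of another line. *IGF2* had 403 and 390 counts in CAKI-2 and at most 21 elsewhere. *KDM5C* itself was higher with guide 5 than with guide 4 in all 4 lines, at 47.4% against 26.2% of the control in 786-O, 56.1% against 47.0% in CAKI-2, 57.3% against 55.9% in A498 and 49.3% against 35.1% in 769-P. Whether the difference in *KDM5C* level has a part in the *IGFBP3* values was not tested.

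None of the 37 tested pathway genes passed edgeR's test in any of the guide comparisons for which tests were run. Unadjusted p-values under 0.05 were found for 4 of the 37 in A498 with sgKDM5C, against 5.55% of all genes. Among the 4 were the adaptor *IRS1* (log2 fold change 0.75 ± 0.22, adjusted p = 0.777), *STC1* (0.76 ± 0.27, 0.88) and *IGF2BP1* (1.009 ± 0.42, 0.88). In CAKI-2 there was 1 with sgKDM5C (1.94% of all genes) and 1 with sgKDM5D (0.773%), and in 786-O 1 with sgKDM5D (1.82%). Between sgKDM5C and sgKDM5D there was 1 in 786-O (4.78%) and 2 in CAKI-2 (3.38%). The difference of the sgKDM5C effects of A498 and CAKI-2 gave 3 (3.01%), and that of the sgKDM5D effects 0 (1.47%). Guide 5 against guide 4 gave 2 (4.65%).

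Genes whose level moved with that of *IGFBP3* were ranked by Pearson's r of log2 CPM over the 16 libraries, among the 11308 protein-coding genes whose counts averaged 100 or more. Across the lines as measured, the first were *HRH1* (0.98), *VEGFA* (0.98), *ICAM5* (0.98), *CCDC159* (0.97) and *MTUS1* (0.97). These values follow the order of the 4 lines, so the 16 points act nearly as 4. With the mean of each line subtracted, the first were *MAPRE3* (0.91), *NMI* (0.88), *ZCCHC7* (0.88), *CAMK2N1* (0.86) and *ZP3* (0.86), and they had values of 0.80 to 0.90 without the 786-O sgKDM5C guide 4 library. Of the IGF genes on that scale, *IGFBP1* was nearest (0.59, and 0.45 without that library) and *IGFBP2* furthest (-0.53 and -0.62). *IGFBP7* went from 0.42 to 0.10 and *IGFBP4* from 0.26 to -0.25 when that library was left out. The libraries of a line share their control and their line mean, and the genes were picked as the highest of many. The *IGFBP3* values include its rise with sgKDM5C in 786-O and 769-P, which led to the choice of genes, so each r is a description only. *IGFBP1* had 0 counts in 769-P and *IGFBP2* had 0 counts in 786-O, so those lines add nothing to their r once the line means are subtracted.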

How the data were processed

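Bulk RNA-seq was available for 16 libraries in 10 groups (cell line by guide target). The values were whole-number counts per gene as deposited by the authors, with no normalization. Libraries were made with a stranded TruSeq kit and sequenced paired-end. The submitters' processing notes name Trimmomatic 0.38, STAR 2.5.2b and GRCh37; the counting tool, annotation and use of strand are not given in the sources used here. Of 57773 gene IDs, 55538 were matched to GENCODE symbols and GRCh37 coordinates. *IGF1*, *INS*, *INSRR*, *IRS4* and *PIK3R2* of the pathway list missed the filter below.

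Genes with at least 60 counts over all libraries were tested (20175). The edgeR 4.0.16 quasi-likelihood test (R 4.3.3, TMM factors 0.935 to 1.07) used every library, a mean for each of the 10 groups and 6 residual degrees of freedom (prior 7.92, biological coefficient of variation 15.2%), and p-values were adjusted by Benjamini-Hochberg over all genes tested, called under 0.05. The SE was obtained from the log2 fold change and the F statistic. The guides were compared in a fit with a guide term added. CPM use TMM-scaled totals, CPM per kb the union length of all annotated exons of a gene, and log2 ratios of single libraries a prior count of 2. The floor of a line is 3 counts over its libraries and covers counting error only. The code was tested on simulated counts. Alternatives were RLE size factors, DESeq2 1.42.0, other filters, a guide block, a fit of each line alone and leaving out each library.

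The 10 genes and the pathway and marker lists were chosen with earlier results of these data known. All 10 genes were named throughout. Of the pathway list, genes were named when called between guides, and for the lines the 5 with the widest range of log2 line means with 0.1 CPM added; *IGF1*, *IGFBPL1* and the 3 pathway genes named in A498 were added after their values were seen, and 1 further pathway gene in A498 is not reported here.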

Additional observations from a re-analysis of the deposited data

Results flagged for a closer look

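For 5 genes both sgKDM5C libraries lay above the control in at least 1 line and both below it in another, as was the case for 40.7% of the 20175 genes tested, counting lines with at least 20 counts. *IGFBP3* is among the 5 and met part of this rule through the rise that led to the choice of genes. The rule sets no least distance from the control. The difference is given between the most distant log2 fold changes. *IGFBP5* differed by 2.65 (higher in A498, lower in CAKI-2, adjusted p = 1 by edgeR). *IGFBP3* differed by 1.40 (higher in 786-O and 769-P, lower in A498, and in CAKI-2 2.21 times the control with guide 4 and 1.04 times with guide 5), which was not tested because the choice of genes used 786-O and 769-P. *IGF1R* differed by 0.62 (higher in A498, lower in CAKI-2 and 769-P, and at 56.2 and 56.5 CPM against 56.5 CPM in 786-O). *IGFBP6* differed by 0.36 (higher in CAKI-2, lower in A498, and at 0.993 and 0.879 times the control in 769-P). The A498 to CAKI-2 differences of *IGF1R* and *IGFBP6* had an adjusted p of 1 by edgeR. *IGF2R* differed by 0.46 (higher in CAKI-2 and A498, lower in 786-O), which was not tested for the same reason as *IGFBP3*.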

How the results depend on the processing

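The number of the 10 genes called, or of 9 where *IGFBP3* was not tested, was 0 in every tested guide comparison as reported. Without a low count filter (40196 genes tested) it was 1 for sgKDM5C in A498, 2 for sgKDM5C against sgKDM5D in 786-O, 1 for that comparison in CAKI-2 and 1 for guide 5 against guide 4 (*IGFBP4*). Leaving out 1 library at a time gave 0 to 2 for sgKDM5C against sgKDM5D in 786-O, with 2 only without sgKDM5C guide 5. The cause was not tested. The *IGFBP3* log2 fold change with sgKDM5C ranged from 0.73 to 1.55 in 786-O and from 0.98 to 1.49 in 769-P when a guide was left out. With the guide number as a replicate block it was 1.14 and 1.23, and the number of the 10 genes called did not change in any comparison. Same-numbered guides did not deviate together (r of the guide difference between lines -0.22 to 0.29 over 12075 genes), so the numbers were not taken to pair libraries. No called value changed its direction under the alternatives run.

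Over all genes, the calls for sgKDM5C against sgCtrl with edgeR, with DESeq2, without a filter and in a fit of the line alone were 2, 22, 136 and 0 for 786-O. They were 0, 4, 15 and 10 for CAKI-2, then 1, 38, 33 and 3 for A498, and 1, 8, 70 and 26 for 769-P. For sgKDM5C against sgKDM5D they were 13, 55, 297 and 0 (786-O) and 0, 28, 109 and 115 (CAKI-2). For sgKDM5D they were 3, 6, 46 and 0 (786-O) and 0, 0, 3 and 0 (CAKI-2). The guide comparison had 0 and, without a filter, 79. Without 786-O sgKDM5C guide 5 the 786-O calls were 205 for sgKDM5C and 314 against sgKDM5D, and without 786-O sgKDM5D guide 4 they were 20 for sgKDM5D and 84 for sgKDM5C against sgKDM5D. With 1 control library per line, effects well beyond small ones could be missed, and levels near 0 rest on a few counts. *KDM5C* itself was not called by edgeR with sgKDM5C in CAKI-2 (log2 fold change -0.96 ± 0.27 SE) or in A498 (-0.82 ± 0.27, adjusted p = 0.828). A gene that was not called can therefore still have changed.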
